A study of Mus musculus with 21 samples.

Results

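NF-κB subunits and the inhibitors that NF-κB and STAT3 signals switch on were followed through zymosan peritonitis in 10 listed mouse genes. These were the subunit genes Nfkb1, Nfkb2 and Relb, the nuclear IκB family genes Bcl3 and Nfkbiz, the cytoplasmic inhibitor Nfkbia, the ubiquitin-editing regulators Tnfaip3 and Tnip1, the cytokine receptor inhibitor Socs3, and the RNase gene Zc3h12a. The genes were chosen by name, and a probe set counted for a gene where the annotation gave it that symbol alone. Of the 10 genes, 9 were measured, among 18194 genes with such a probe set in all, and all 9 were among the 12169 genes tested. Nfkb1 was not analysed here.

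The series held 21 Affymetrix arrays of sorted cells, 3 in each of 7 groups, from female C57BL/6 mice aged 7 to 8 weeks. Zymosan, a yeast cell wall preparation, was injected into the peritoneal cavity of the inflamed mice. The labels call the arrays of a group biological replicates and do not say whether cells of several mice were pooled, so the p-values measure the spread between these arrays. The authors' purpose was to profile monocytes and macrophages as inflammation arises and resolves. The reference cells came from naive mice. They were bone marrow monocytes positive for Ly-6B and negative for Ly-6G, and macrophages resident in the peritoneum that stained high for F4/80 and CD11b. Inflamed mice gave Ly-6B+ Ly-6G- monocytes at 4 h. At 18 h the sorted monocytes and macrophages were Ly-6G- and ranged from Ly-6B low to positive. At 72 h they were F4/80+ CD11b+ macrophages. At 168 h macrophages were sorted by Ly-6B. The positive cells stained medium to high for F4/80 and the negative cells high. No group carried a genetic modification, and there was no group injected with vehicle.

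NF-κB proteins are held in the cytoplasm by IκB proteins until microbial products or cytokines lead to IκB degradation, after which NF-κB dimers enter the nucleus and switch on inflammatory genes. The same dimers also switch on genes that restrain the pathway, among them Nfkbia, which carries NF-κB back out of the nucleus, and Tnfaip3, which edits ubiquitin chains on signalling complexes. Socs3 belongs to the parallel loop in which STAT3, activated by cytokines such as interleukin-6, switches on an inhibitor of its own receptors.

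The promoters of these genes are shown because the members are known as targets of their own pathway. RefSeq promoters of build GRCm38.p6, each running from 250 bases before a transcript start to 50 after it, matched 7 of the 10 genes with 10 promoters, and Nfkb1, Relb and Nfkbiz were not matched. The κB consensus, searched on both strands, was found in 5 of the 7 genes, against 5.14% of 27025 genes, and in 7 of the 10 promoters, against 4.51% of 32851 promoters of the same length. Nfkb2 has 3 of those promoters, of which 2 overlap and share 1 match, so the promoters are not separate. The STAT motif TTCNNNGAA was found in 3 genes (Nfkb2, Tnip1 and Socs3), against 9.55% of genes and 8.30% of promoters. Overlapping matches within a promoter were each marked. A match is a description of the letters only. In this build Relb (chr7:19606217-19629438) and Bcl3 (chr7:19808462-19822824) lie near each other, and the other members lie apart. The promoters of Nfkbia and of the upstream Tnfaip3 start follow, each from 250 bases before the start to the first 30 bases of the transcript, read 5′ to 3′ with κB matches in capitals.
Nfkbia (chr12:55492618-55492897, minus strand): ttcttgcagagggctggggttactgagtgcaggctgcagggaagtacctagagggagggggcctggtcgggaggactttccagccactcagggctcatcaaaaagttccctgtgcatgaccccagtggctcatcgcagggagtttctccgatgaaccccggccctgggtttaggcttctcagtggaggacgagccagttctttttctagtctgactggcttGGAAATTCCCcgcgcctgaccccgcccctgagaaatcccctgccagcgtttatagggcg
Tnfaip3 (chr10:19015381-19015660, minus strand): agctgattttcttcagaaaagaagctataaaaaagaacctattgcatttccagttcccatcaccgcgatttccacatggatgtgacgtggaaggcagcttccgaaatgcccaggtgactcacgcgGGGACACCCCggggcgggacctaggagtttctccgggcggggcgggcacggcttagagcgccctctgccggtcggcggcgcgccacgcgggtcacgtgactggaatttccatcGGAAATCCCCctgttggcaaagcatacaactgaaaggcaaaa

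The Nfkbia match ended 20 bases before the start, and the Tnfaip3 matches lay just before the start and farther upstream. The Zc3h12a promoter matched neither motif. For the 4 genes that follow, the start used lies inside a longer annotated gene span, and a window of 30 bases around the match is shown. Capitals mark κB matches in Nfkb2, Bcl3 and Tnip1 and the STAT match in Socs3, which had no κB match in its window of 300 bases.
Nfkb2 (chr19:46304689-46304718, plus strand): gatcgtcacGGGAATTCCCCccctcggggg
Bcl3 (chr7:19822734-19822763, minus strand): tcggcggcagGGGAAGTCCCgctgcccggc
Tnip1 (chr11:54962978-54963007, minus strand): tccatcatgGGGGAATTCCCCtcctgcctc
Socs3 (chr11:117969501-117969530, minus strand): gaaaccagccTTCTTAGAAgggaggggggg

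The Nfkb2 and Tnip1 windows each hold overlapping κB matches. The match of Bcl3 lies just after the transcript start.

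Values are MAS5 signals, a linear fluorescence intensity that the authors scaled within each array, and the array medians ran from 67.3 to 93.0. Classical monocyte markers (5 of 7 measured) summed to 82671 to 85128 in bone marrow monocytes and 2468 to 5623 in Ly-6B- macrophages of 168 h. Markers of neutrophils (9 of 10 measured) summed to 71790 to 218189 in the bone marrow arrays, 9126 to 10404 at 4 h and at most 2231 elsewhere. Replicate 2 of 72 h stood apart with mast cell markers of 6771 (355 and 362 in the other arrays) and B cell markers of 8119 (637 and 743). In replicate 2 of 4 h the resident macrophage gene Alox15 was at 2200, against 131 and 156. All 5 mesothelial markers were below the table's median in each group. In sorted bulk samples, fewer cells of a type and less RNA per cell cannot be told apart.

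Within 4 h of zymosan, 6 of the 9 genes rose in monocytes by at least 2-fold over bone marrow monocytes. They were Socs3 (19.8-fold), Bcl3 (9.93-fold), Relb (5.01-fold), Nfkb2 (4.31-fold), Zc3h12a (2.31-fold) and Tnip1 (2.02-fold), and none fell. A gene was called where limma's adjusted p over all genes tested was under 0.05 and the log2 difference was at least 1. Of all genes tested, 7.50% were called higher and 14.5% lower in the same comparison. The arrays of the groups did not overlap for 8 of the 9 genes, against 54.7% of all genes. The median log2 difference of the 9 genes was 1.21, against -0.14 over all genes. The median level of the genes tested on an array was also lower at 4 h, by a log2 difference of -0.36. Over all probe sets the array medians overlapped, at 67.3, 75.1 and 72.1 at 4 h and 78.3, 69.4 and 84.3 in bone marrow. With every array set to a common median the members called numbered 6 as well. Neutrophil markers moved with this comparison, 7 of 9 being lower at 4 h and 1 higher. Of 9 resident macrophage markers, 6 were higher at 4 h and 1 lower. Of 17 handling-stress genes, which are immediate-early and heat shock genes, 2 were higher and 1 lower. The part of these genes in the member values was not tested. Without the 3 arrays that stood apart by markers (replicate 3 of bone marrow, and replicate 2 of 4 h and of 72 h, a choice made after seeing the data), 4 of 9 were called. Tnip1 then had a log2 difference of 0.93 (limma adjusted p = 3.11e-04), and Zc3h12a one of 0.98 (limma adjusted p = 0.0536).

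**Figure D1:**
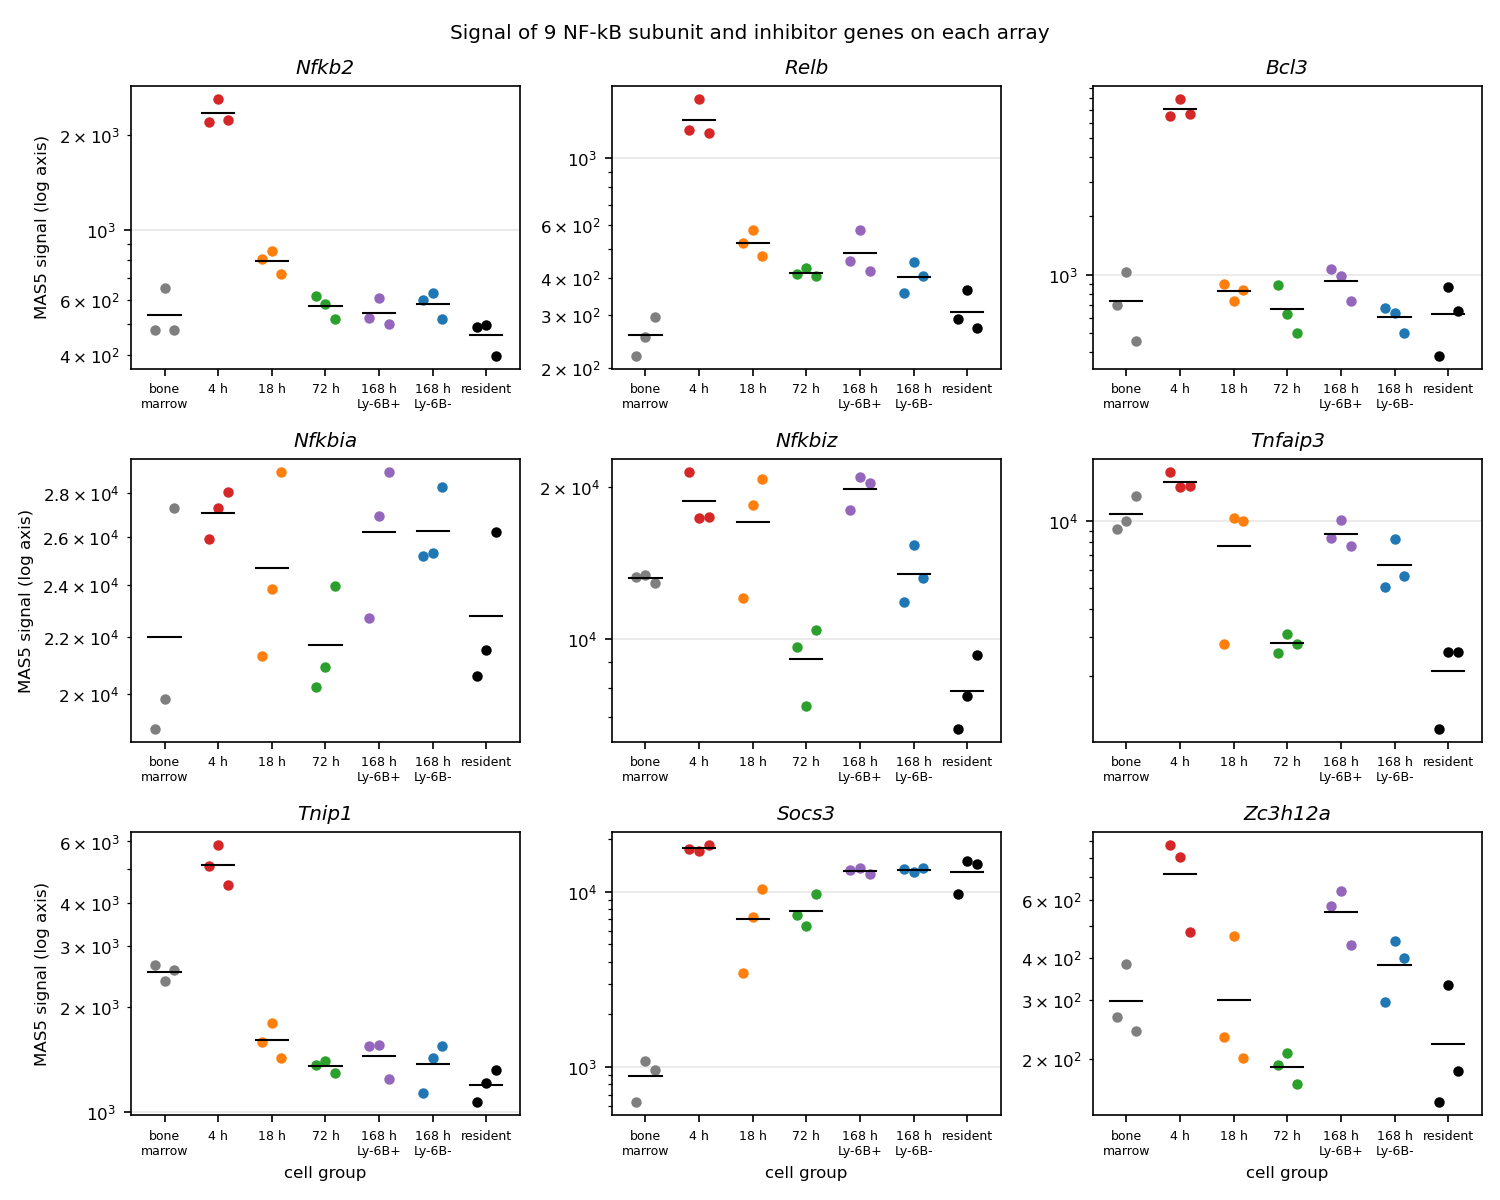
MAS5 signal on a log axis for the 9 measured genes, 1 panel a gene, with a point for each of the 3 arrays of each of the 7 groups and a line at the group mean. The 4 h arrays lie highest for Nfkb2, Relb, Bcl3 and Tnip1, whereas Socs3 is lowest in bone marrow monocytes and Nfkbia is nearly level.

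Among the subunit genes, Nfkb2 encodes the precursor of the non-canonical pathway's DNA-binding subunit. Its signals were 480, 651 and 479 in bone marrow monocytes and 2198, 2602 and 2231 at 4 h. By 18 h they were 808, 856 and 725, and no array of 72 h, 168 h or resident macrophages exceeded 628. The 4 h arrays stood clear of each other group, and the 18 h arrays lay between. The group means were 536 ± 99.0 in bone marrow and 2343 ± 225 at 4 h (SD, n = 3). The log2 difference of 4 h over bone marrow was 2.11 (95% interval 1.81 to 2.41, limma adjusted p = 2.55e-10). A further probe set of the gene read lower, with 718 at 4 h and 428 in bone marrow on average, and its log2 difference of 0.74 (limma adjusted p = 0.0109) did not reach the fold required for a call.

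Relb encodes the usual partner of the Nfkb2 product. Its signals were 220, 254 and 296 in bone marrow monocytes, then 1248, 1580.5 and 1212 at 4 h and 522, 578 and 471 at 18 h. At 72 h they were 412, 431 and 405, and resident macrophages gave 291, 362 and 271. The 4 h arrays again stood above all others, with a mean of 1347 ± 203 against 257 ± 38.2 in bone marrow (SD, n = 3). The rise over bone marrow was 2.33 on the log2 scale (95% interval 1.99 to 2.66, limma adjusted p = 2.67e-10), and the bone marrow arrays were the lowest group on average.

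Bcl3, a nuclear IκB protein that binds DNA-bound NF-κB homodimers, peaked at 4 h. Its signals were 703, 1038 and 455 in bone marrow monocytes and 6493, 7956 and 6693 at 4 h, and 893, 737 and 832 by 18 h. Every array outside 4 h read 1068 or less. The means were 732 ± 292 in bone marrow and 7047 ± 793 at 4 h (SD, n = 3). The log2 difference of 4 h over bone marrow was 3.31 (95% interval 2.74 to 3.88, limma adjusted p = 3.55e-09), and without the 3 arrays named above it was 2.93 (limma adjusted p = 6.73e-07).

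Nfkbiz encodes the other nuclear IκB member, which is needed for secondary genes such as that of interleukin-6. Its brightest probe set read 13249, 13420 and 12898 in bone marrow monocytes and 21411, 17376 and 17432 at 4 h. These arrays did not overlap, but the log2 difference of 0.50 (95% interval 0.14 to 0.86, limma adjusted p = 0.0207) was under the fold required. Both dimmer probe sets gave larger differences over bone marrow, at 1.51 (limma adjusted p = 0.00327) and 1.34 (limma adjusted p = 1.49e-05) in a fit of all 22163 probe sets that passed the filter, 20.6% of which were called in either direction. One of them read 612, 662 and 701 in bone marrow monocytes, 1818, 1574 and 1690 at 4 h and 2543, 2520 and 2977 in resident macrophages. The other was lowest in resident macrophages, at 763, 731 and 891. The level of Nfkbiz in resident cells therefore depends on the probe set, and its direction against them is not settled.

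Nfkbia, the gene of IκBα, also depended on the probe set. The one with the highest mean, used for the gene, read 18880, 19851 and 27301 in bone marrow monocytes and 25930, 27301 and 28046 at 4 h, in a table whose values ran from 0.0638 to 49770. A difference across the 7 groups was not detected for it (limma F test, adjusted p = 0.16), and its log2 difference at 4 h was 0.32 (95% interval 0.03 to 0.61, limma adjusted p = 0.0659). By contrast, another probe set read 3489, 4910 and 5774 in bone marrow monocytes and 15045, 17529 and 18782 at 4 h. Its log2 difference of 1.88 passed the test (limma adjusted p = 8.70e-05), as did that of a further one, 1.94 (limma adjusted p = 5.72e-07). Of the 5 probe sets of the gene, these were the 2 called, while the remaining ones gave 0.93, 0.47 and 0.32. All 5 were higher on average at 4 h than in bone marrow. The probe sets were set side by side after their values were seen. When the probe sets of each gene were averaged, Nfkbia was called at 4 h with a log2 difference of 1.11 (limma adjusted p = 5.89e-05).

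**Figure D2:**
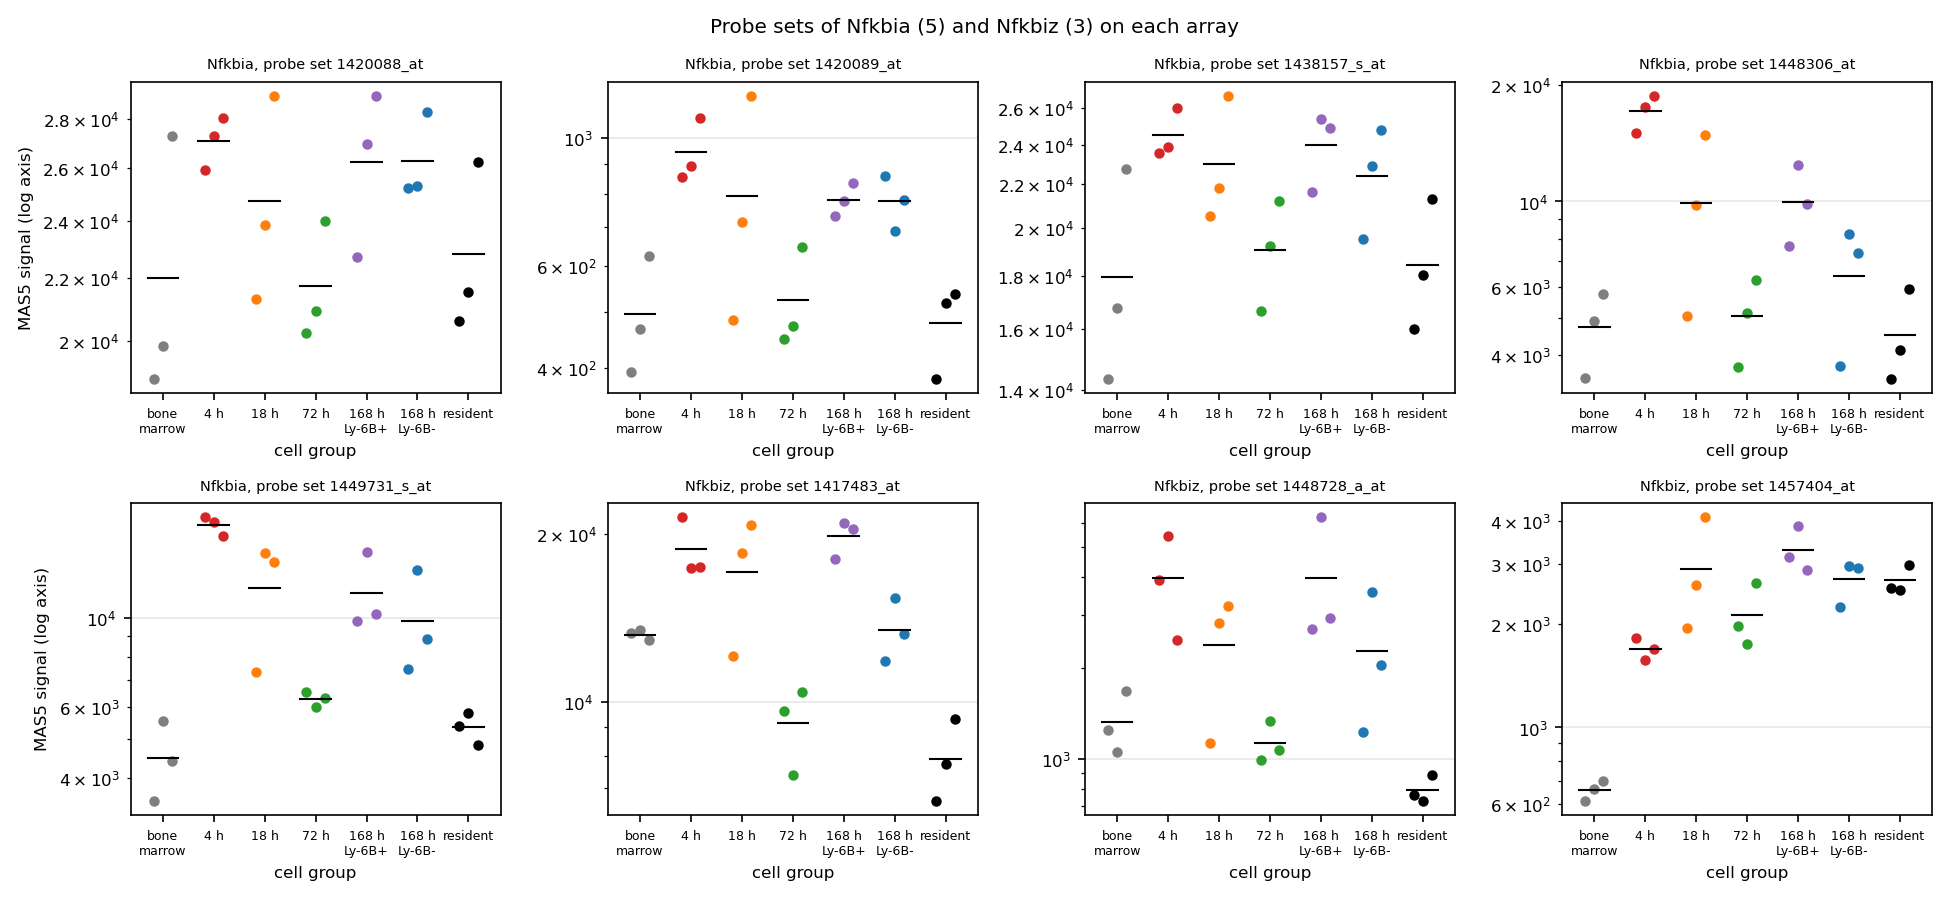
MAS5 signal on a log axis for each of the 5 probe sets of Nfkbia and the 3 of Nfkbiz, by group, with a point for each array and a line through the group means. The brightest Nfkbia probe set is nearly flat while 2 others peak at 4 h, and 1 Nfkbiz probe set is lowest in bone marrow monocytes.

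Tnfaip3 and Tnip1 encode a ubiquitin-editing enzyme and its binding partner. The signals of Tnfaip3 were 9142, 9961 and 12950 in bone marrow monocytes and 16550, 14222 and 14258 at 4 h. The arrays did not overlap, but the log2 difference was 0.50 (95% interval -0.25 to 1.25, limma adjusted p = 0.277). A dimmer probe set of the gene gave 273, 368 and 355 against 979, 877 and 530 and was called, with a log2 difference of 1.19 (limma adjusted p = 0.0143). For Tnip1 the signals were 2646, 2382 and 2555 in bone marrow monocytes and 5090, 5850 and 4498 at 4 h. Its log2 difference of 1.01 (95% interval 0.73 to 1.30, limma adjusted p = 3.27e-06) lies at the fold required, and the call was lost with quantile normalization (0.95) and without replicate 2 of 4 h (0.92) or of bone marrow (0.97).

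Socs3 had the largest change of the group, from signals of 635, 1087 and 971 in bone marrow monocytes to 17526, 17026 and 18325 at 4 h. The log2 difference was 4.31 (95% interval 3.74 to 4.87, limma adjusted p = 8.29e-11), and its other probe sets gave 4.70 and 3.44. The means were 898 ± 235 and 17626 ± 655 (SD, n = 3). Socs3 was also above its bone marrow level in each remaining group. The log2 differences were 2.83 at 18 h, 3.11 at 72 h, 3.89 and 3.91 in the Ly-6B+ and Ly-6B- cells of 168 h, and 3.84 in naive resident macrophages. All of these were called by limma, where 7.30%, 11.5%, 10.2%, 13.1% and 12.9% of all genes were called higher. Zc3h12a, which encodes an RNase that destroys inflammatory transcripts, read 267, 386 and 242 in bone marrow monocytes and 874, 804 and 479 at 4 h. Its log2 difference was 1.21 (95% interval 0.57 to 1.85, limma adjusted p = 0.00249), and a dim second probe set was not called (0.73).

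Naive resident macrophages offered the other reference for the 4 h monocytes, with the 4 h arrays shared between both comparisons. Here 7 of the 9 genes were higher at 4 h, where 9.23% of all genes were called higher and 21.7% lower, and none was lower. Bcl3 was 11.4-fold higher (log2 3.52), Tnfaip3 7.52-fold (2.91), Nfkb2 4.94-fold (2.30), Tnip1 4.25-fold (2.09), Relb 4.22-fold (2.08), Zc3h12a 3.17-fold (1.66) and Nfkbiz 2.38-fold (1.25), with limma adjusted p between 2.84e-11 and 8.99e-05. Socs3 was not called, since resident macrophages read 9727, 14851 and 14250.0 against 17026 to 18325, a log2 difference of 0.47 (95% interval -0.10 to 1.03, limma adjusted p = 0.151). Tnfaip3 showed the converse, with 1163, 2583 and 2570 in resident macrophages. For Nfkbiz the probe set brightest in resident macrophages gave -0.66 (limma adjusted p = 0.00974), and the mean over its probe sets gave 0.94. Nfkbia was not called by its brightest probe set (0.26, limma adjusted p = 0.124). Other probe sets of Nfkbia were called, at 1.67 (limma adjusted p = 2.90e-06) and 1.95 (limma adjusted p = 4.00e-05), and the remaining ones gave 0.97 and 0.42. The mean over the Nfkbia probe sets was called as well (1.05, limma adjusted p = 7.80e-05). The second probe sets of Nfkb2 (0.66, limma adjusted p = 0.0183) and Zc3h12a (0.50, limma adjusted p = 0.138) were not called here. Beside the markers of the sorted cell types themselves, 3 of 9 neutrophil markers, 3 of 4 dendritic cell markers and 3 of 17 handling-stress genes were higher at 4 h and none lower. Neutrophil markers summed to 618 to 682 in resident macrophages, and dendritic cell markers to 796 to 1373 at 4 h and 517 to 549 in resident macrophages. Their part in the member values was not tested.

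From 4 h to 18 h, 7 of the 9 genes fell, against 4.56% of all genes called lower, and the 4 h arrays are again shared. Bcl3 fell by 3.08 on the log2 scale, Tnip1 by 1.67, Nfkb2 by 1.54, Socs3 by 1.47, Relb by 1.33, Zc3h12a by 1.27 and Tnfaip3 by 1.18, with limma adjusted p from 9.73e-09 to 0.0123. The second probe sets of Zc3h12a (-0.18, limma adjusted p = 0.665) and Nfkb2 (-0.81, limma adjusted p = 0.0073) were not called, nor was Zc3h12a averaged over its probe sets (-0.73). The median of the 9 genes was -1.33, against 0.14 over all genes. Nfkbiz (-0.16) and the brightest Nfkbia probe set (-0.14) were not called. The 18 h arrays were uneven for the inhibitors. Tnfaip3 read 2793, 10280 and 10015, and Socs3 read 3431, 7178 and 10316, so that replicate 1 was the lowest in both. Without replicate 1 of 18 h, Tnfaip3 was no longer called (-0.56, limma adjusted p = 0.112). The 17 genes of the handling-stress list, immediate-early and heat shock genes, summed to 126247 in that replicate and to 146155 and 184475 in the others. At 18 h, 8 of 9 resident macrophage markers were higher than at 4 h and none lower. Of 5 classical monocyte markers, 2 were lower and none higher. The part of these genes in the result was not tested. Against bone marrow monocytes, by the brightest probe sets, Socs3 alone among the 9 was called at 18 h by limma. Of all genes, 7.30% were called higher and 8.32% lower there. Relb was just under the fold required there, at 0.99. Dimmer probe sets differed. A probe set of Nfkbiz averaged 658 in bone marrow and 2884 at 18 h, and a probe set of Nfkbia 4488 and 11845. The second probe sets of Nfkb2 (428 and 402) and Tnfaip3 (332 and 273) were lower at 18 h.

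**Figure D3:**
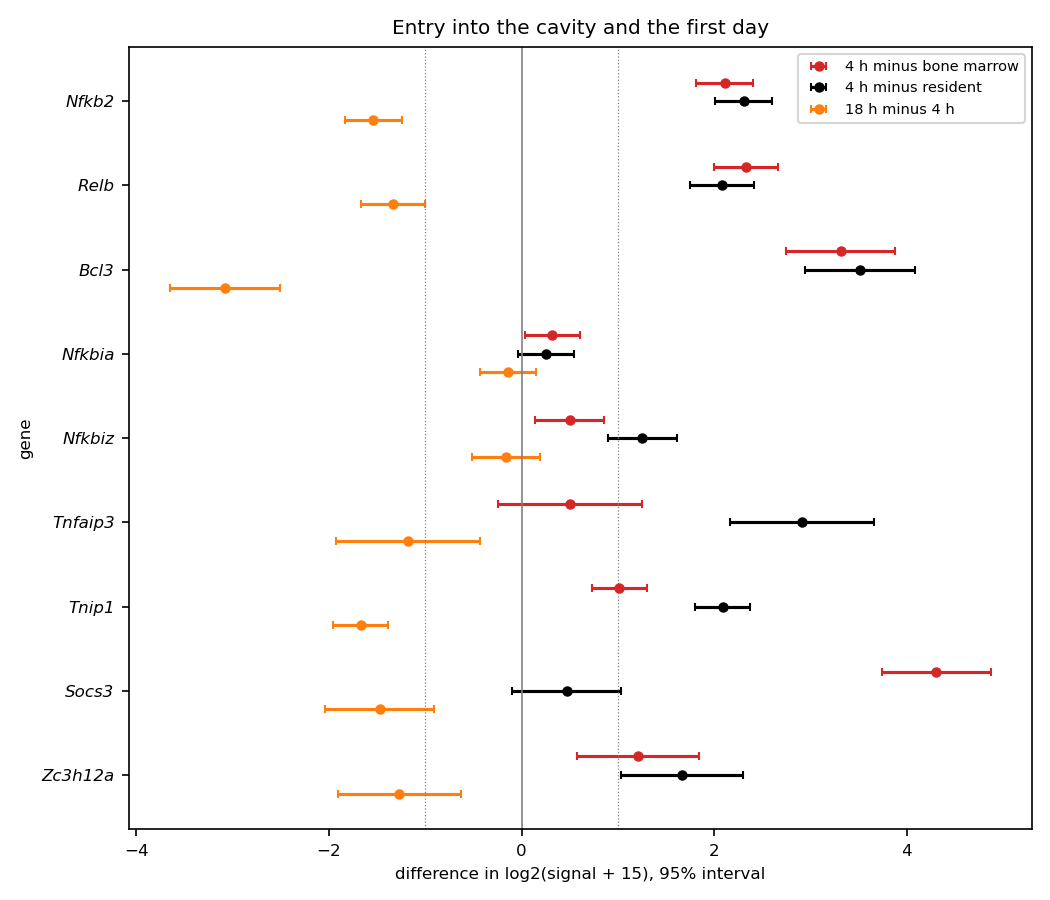
Log2 differences of the 9 genes with 95% intervals, as points with bars, for 4 h minus bone marrow monocytes, 4 h minus resident macrophages and 18 h minus 4 h. Bcl3 reads 3.31, 3.52 and -3.08 in the 3 comparisons, while Socs3 differs between the references at 4.31 and 0.47.

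Between 18 h and 72 h, 1 of the 9 genes was called. Tnfaip3 fell (-1.23, limma adjusted p = 0.0125), where 3.46% of all genes were called lower. The arrays overlapped, since Tnfaip3 read 2557, 3087 and 2805 at 72 h and replicate 1 of 18 h was at 2793. The call was lost without replicate 2 of 18 h (-0.91, limma adjusted p = 0.0871) or replicate 3 (-0.93, limma adjusted p = 0.0823). Nfkbiz had a difference of -0.88 (limma adjusted p = 4.56e-04), under the fold required, and without replicate 1 of 18 h it was -1.11 and called. The remaining 7 genes had differences from -0.53 to 0.28. Cell type markers moved with this comparison. All 5 classical monocyte markers were lower at 72 h, and 7 of 9 resident macrophage markers were higher and none lower. Of 17 handling-stress genes, 3 were lower and none higher. The part of these genes in the member values was not tested. By 72 h, 8 of the 9 genes were lower than at 4 h by their brightest probe sets, where 8.13% of all genes were called lower. Nfkbiz, among the 8, depended on the probe set. A dimmer probe set averaged 1694 at 4 h and 2120 at 72 h, and the other 3946 and 1134.

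At 168 h the Ly-6B+ and Ly-6B- macrophages did not differ by a call in any of the 9 genes, where 3.94% of all genes were called in either direction. Nfkbiz came nearest, with 18004, 20939 and 20394 in Ly-6B+ cells and 11817, 15330 and 13196 in Ly-6B- cells. Its log2 difference of 0.56 (95% interval 0.20 to 0.92, limma adjusted p = 0.0469) was under the fold required. At an unadjusted p under 0.05 by limma there were 2 of the 9 genes, against 20.7% of all genes. Bcl3 differed by 0.61 (limma adjusted p = 0.208), and Socs3 by -0.02 (95% interval -0.58 to 0.55).

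Ly-6B+ macrophages of 168 h were above macrophages of 72 h in 3 of the 9 genes, where 0.674% of all genes were called higher. This pair was singled out of the 21 pairs of groups after its values were seen. Tnfaip3 read 8399, 10068 and 7703 in Ly-6B+ cells and was 3.08-fold higher (log2 1.62, limma adjusted p = 0.00837). Zc3h12a read 575, 639 and 439 against 192, 209 and 168 at 72 h and was 2.74-fold higher (log2 1.45, limma adjusted p = 0.00531). Its second, dim probe set gave -0.05 (limma adjusted p = 0.967), and the call was lost when both were averaged (0.70, limma adjusted p = 0.0897). Nfkbiz, at 9625, 7387 and 10400 at 72 h, was 2.18-fold higher (log2 1.12, limma adjusted p = 2.53e-04). Of its dimmer probe sets, that at 1.69 was called (limma adjusted p = 0.0127) and that at 0.64 was not (limma adjusted p = 0.0876). Socs3 was not called by its brightest probe set (0.78) or by another (0.68), but a further probe set was called at 1.04 (limma adjusted p = 0.0493). By their brightest probe sets, the arrays of Tnfaip3, Zc3h12a and Nfkbiz did not overlap between the groups. This adds no separate support, since the genes were picked by their calls, and the share of all genes without overlap was not counted for this pair. The NF-κB subunit genes were not called, at 0.20 for Relb and -0.07 for Nfkb2. Against the same 72 h arrays, the Ly-6B- macrophages were called in none of the 9 genes by limma, where 0.0575% of all genes were called higher and 0.452% lower. An unadjusted p under 0.05 was reached by 4 of the 9 genes and by 10.3% of all genes. Tnfaip3 differed there by 1.13 (limma adjusted p = 0.201).

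**Figure D4:**
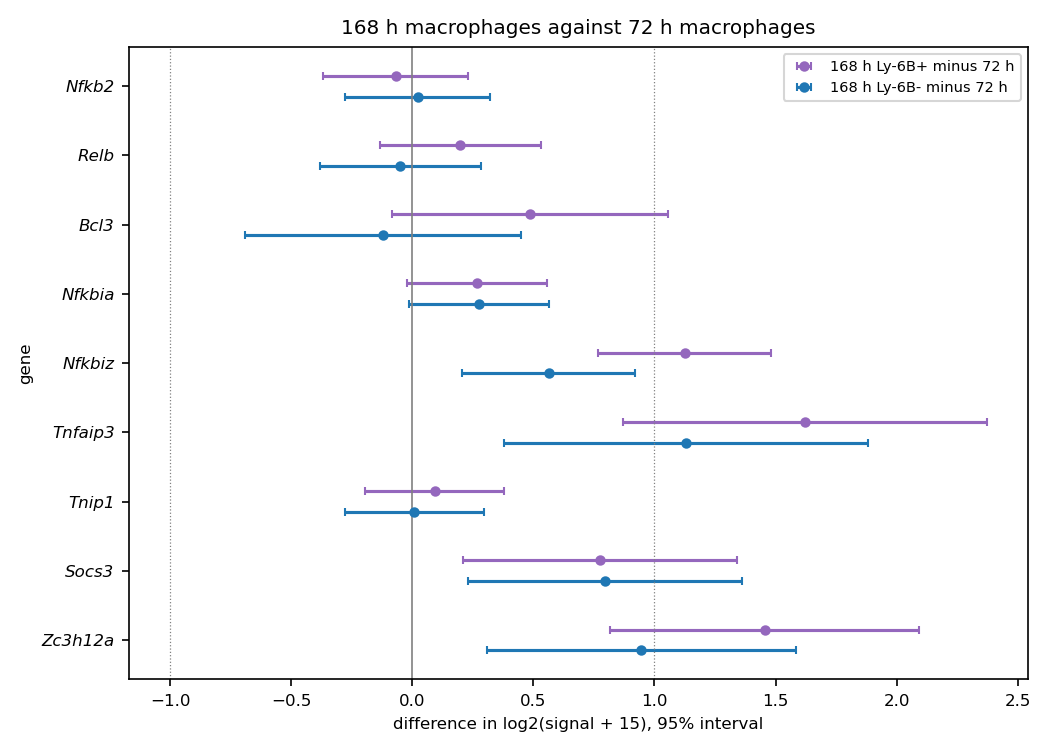
Log2 differences of the 9 genes with 95% intervals, as points with bars, for the Ly-6B+ and the Ly-6B- macrophages of 168 h, each minus the macrophages of 72 h, whose arrays both share. Tnfaip3, Zc3h12a and Nfkbiz are called in Ly-6B+ cells, at 1.62, 1.45 and 1.12.

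Other values moved with that pair. Handling-stress genes summed to 160505 to 177858 in Ly-6B+ cells of 168 h and 106984 to 125099 at 72 h, with 3 of 17 called higher and none lower. Classical monocyte markers summed to 35836 to 44159 and 10354 to 19601. Their part in the result was not tested. With the 3 arrays that stood apart left out, among them replicate 2 of 72 h, Tnfaip3 (1.69) and Zc3h12a (1.52) were called and Nfkbiz was not (0.98, limma adjusted p = 0.00454).

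Ly-6B- macrophages of 168 h differed from naive resident macrophages by a call in none of the 9 genes, and 5 genes of all tested (0.0411%) were called. An unadjusted p under 0.05 by limma was reached by 5 of the 9 genes and by 3.56% of all genes, and none of the 5 passed the adjustment. The 5 were Nfkb2, Relb, Nfkbiz, Tnfaip3 and Zc3h12a, by their brightest probe sets, all higher in Ly-6B- cells. Other probe sets were mixed, with log2 differences of -0.33 for Nfkb2, -0.20 for Zc3h12a, 0.004 and 1.37 for Nfkbiz and 1.22 for Tnfaip3. Tnfaip3 read 5023, 8315 and 5626 against 1163, 2583 and 2570, a log2 difference of 1.63 (95% interval 0.88 to 2.39, limma adjusted p = 0.21), and Nfkbiz differed by 0.77 (limma adjusted p = 0.21). For Tnfaip3 the test over all genes did not pass, and its signals are given as a description.

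Between the cells of naive mice, resident macrophages and bone marrow monocytes, 3 of the 9 genes were called. Socs3 was 14.3-fold higher in resident macrophages (log2 3.84, limma adjusted p = 2.53e-10), where 12.9% of all genes were called higher. Tnfaip3 was 5.31-fold lower (log2 -2.41, limma adjusted p = 1.20e-05) and Tnip1 2.10-fold lower (log2 -1.07, limma adjusted p = 1.70e-06), where 10.2% were called lower. The Tnip1 call was lost without replicate 1 of the resident cells (-0.99). Not called were Nfkb2 (-0.20), Relb (0.25), Bcl3 (-0.20), Nfkbia (0.06) and Zc3h12a (-0.45). Nfkbiz, at -0.75 by its brightest probe set, was higher by a log2 difference of 2.00 by the probe set brightest in resident cells (limma adjusted p = 7.04e-08), where 22.2% of probe sets were called. Neutrophil markers were lower in resident macrophages in 8 of 9 genes, and 4 of 17 handling-stress genes were lower and 1 higher, and their part in the member values was not tested.

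Over the 7 groups, 8 of the 9 genes varied in limma's F test, where 69.8% of all genes did. The exception was Nfkbia, judged by its brightest probe set. In the fit of all probe sets its other probe sets did pass (limma F test, adjusted p from 1.53e-06 to 0.0283). The second probe set of Zc3h12a did not pass there (limma F test, adjusted p = 0.191). The highest group was 4 h for 8 genes and Ly-6B+ cells of 168 h for Nfkbiz, whose neighbour in the order was 4 h with no difference (limma adjusted p = 0.72). The 4 h level differed from the next in the order for Nfkb2 and Relb (next 18 h), Bcl3 (next Ly-6B+ cells of 168 h) and Tnip1 (next bone marrow). For Socs3, the lowest neighbours differed, with 18 h above bone marrow (limma adjusted p = 5.27e-08). For Nfkbia, Tnfaip3 and Zc3h12a no neighbours in the order differed. The span from highest to lowest group mean was 4.31 for Socs3 and 0.32 for the brightest probe set of Nfkbia on the log2 scale.

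The surrounding pathway was described by lists of other genes. Among the remaining NF-κB core and kinase genes, 2 of 12 rose at 4 h over bone marrow. They were the IκB genes Nfkbie, from 1471 to 8409 (log2 2.52), and Nfkbib (1.30). The subunit genes Rela (0.77, limma adjusted p = 1.05e-04) and Rel (0.13, limma adjusted p = 0.675), picked out after their values were seen, were not called there. The list's median log2 difference was 0.01, against -0.14 over all genes. Against resident macrophages 5 of 12 were higher and 1 lower, led by the subunit gene Rel (3.27). At 18 h, 3 fell (Rel -1.96, Nfkbib -1.47 and Nfkbie -1.11), and from 18 h to 72 h the 3 that fell were Nfkbie (-1.40), the kinase gene Map3k14 (-1.28) and Rel (-1.11). In resident macrophages 2 of 12 were lower than in bone marrow monocytes, Rel (-3.14) and Nfkbid (-1.78).

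Upstream of the kinases, 4 of 13 adaptor and ubiquitin ligase genes rose at 4 h over bone marrow, among them Traf1 (4.22) and the Toll-like receptor adaptor Myd88 (1.84). Of 8 genes that sense yeast through Card9, 3 rose, namely the C-type lectin genes Clec4n (5.28) and Clec4e (3.68), and Malt1 (1.40). At 18 h, 3 adaptor genes and 4 of the yeast-sensing genes fell, with Clec4n at -2.86, Clec4e at -1.92 and Tlr2 at -1.50.

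Other brakes on the pathway rose at 4 h over bone marrow in 5 of 19 genes. Zfp36l1, which destabilises messenger RNAs, led at 3.07, followed by N4bp1 (2.02) and Tnip2 (1.54). Pdlim2 went the other way at 18 h, rising by 1.91 while 4 brakes fell. In the STAT3 and SOCS list 8 of 20 rose at 4 h over bone marrow, including Socs5 (2.73), Il6 (2.67) and Cish (2.59), and 6 fell by 18 h. Of 25 NF-κB target genes, 19 rose at 4 h over bone marrow and 1 fell. The chemokine Cxcl3 (7.12) and the interleukin-1 genes Il1a (4.95) and Il1b (4.78) had the largest differences. By 18 h 14 of the 25 had fallen and 1 had risen, and by 72 h 8 were lower and 1 higher than at 18 h.

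Between the macrophages of 168 h, 1 gene or none of each list other than the targets was higher in Ly-6B+ cells and none lower. Among targets, 4 of 25 were higher there, with Ccl5 at 1.68, Gadd45b at 1.64 and Il1b at 1.44. Malt1 (1.30), Traf1 (1.34), Dusp2 (1.45) and Socs6 (1.33) were the single calls of their lists. Ly-6B+ cells of 168 h were above 72 h macrophages in 1 of 12 core genes, 1 of 8 yeast-sensing genes, 1 of 19 brakes, 2 of 20 genes of the STAT3 list and 3 of 25 targets, with none lower.

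Genes with the most similar pattern to each member were found by Pearson's r of log2 signal over all 21 arrays, which share their groups, and the values are descriptions. Nfkb2 lay closest to Il4ra (r = 0.976), Relb to Cxcl3 (0.962), Bcl3 to Smox (0.969) and Tnip1 to Pak1ip1 (0.968). Socs3 lay closest to Ier3 (0.967) and Cxcl2 (0.951), both immediate response genes. Tnfaip3 and Nfkbiz shared Maff among their closest genes (0.923 and 0.875), and Zc3h12a lay closest to Tiparp (0.893). Nfkbia had no gene above Tmem11 (0.797). Between members, Nfkb2, Relb and Bcl3 had r from 0.877 to 0.941, Nfkbiz and Tnfaip3 had 0.865, and Socs3 had -0.10 with Tnfaip3 and with Tnip1.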

How the data were processed

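Per the labels, TriZol was used to extract RNA of sorted cells, and 2 cycles of amplification started from 100 ng. The authors deposited linear MAS5 signals, an intensity per probe set, from Affymetrix Expression Console 1.2, per the submitters' processing notes. Of 45101 probe sets, 34958 had 1 symbol, 932 several and 9211 were not listed. Each gene took its probe set with the highest mean, and genes above 80.6, the table's median, in at least 3 arrays were tested. Signals were taken as log2(signal + 15), 15 being the rounded 20th percentile, which understates changes of dim genes. The model was limma 3.58.1's lmFit and eBayes with a trend, in R 4.3.3, over 21 arrays (14 residual degrees of freedom), with Benjamini-Hochberg adjustment over all genes within a comparison and 2-sided tests. Main comparisons numbered 7, and all 21 pairs were fitted. The number of arrays limits the precision. The fit was tested on simulated data.

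The members and lists were chosen with earlier results of these data known. The rule for names takes all members, up to 3 called genes of a list in a comparison, and the 3 most alike genes of a member. Residuals of the same replicate number correlated above 0.1 for all 3 numbers in the 168 h groups alone, at 0.296, 0.276 and 0.178. Without that cutoff, all 6 arrays also correlated best with their own number at 4 h against resident macrophages and at 72 h against 18 h. The same held for resident macrophages against bone marrow monocytes and against Ly-6B- cells of 168 h. At 4 h against bone marrow 2 of 6 arrays did so, and at 18 h against 4 h 4 of 6. Alternatives were 1 and 4 times the value added, arrays brought to a common median or quantile-normalized, the filter dropped or raised to the 75th percentile, probe sets averaged per gene, eBayes without the trend, a replicate block, the 6 arrays compared, no minimum fold, and each replicate left out. Probe sets tested singly and 3 arrays left out were added after seeing the data.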

Additional observations from a re-analysis of the deposited data

How the results depend on the processing

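Of 1301 member values recomputed under the alternatives, 1226 kept their direction and their side of the threshold, 22 lost a call, 11 gained one, and 42 changed sign. Of the sign changes, 40 were of values called on neither side, and they lay between -0.33 and 0.70. Among them were Nfkbiz at 18 h against 4 h (-0.16 to 0.70 by another probe set), Nfkb2 and Zc3h12a in Ly-6B- cells of 168 h against resident macrophages (0.32 to -0.33 and 0.81 to -0.20 by another probe set) and Socs3 at 72 h against 18 h (0.28 to -0.16 without replicate 1 of 18 h). The 2 sign changes with a call on either side were of 1 Nfkbiz probe set, at -0.66 for 4 h against resident macrophages and 2.00 for resident macrophages against bone marrow monocytes, and the cause was not tested. Members called between 72 h and 18 h went from 1 to 3 with no minimum fold, to 0 with the 6 arrays compared alone, and to 0 to 2 with a replicate left out. In the 168 h pair 1 member was called with no minimum fold (Nfkbiz), against 0. Averaging probe sets lost Zc3h12a at 4 h over bone marrow (0.97) and at 18 h (-0.73). It also lost Zc3h12a in Ly-6B+ cells of 168 h against 72 h (0.70) and Nfkbiz at 4 h over resident macrophages (0.94). Calls gained by averaging were Nfkbiz (1.12) and Nfkbia (1.11) at 4 h over bone marrow, and Nfkbia at 4 h over resident macrophages (1.05). Without replicate 2 of 72 h, Nfkbiz was not called between Ly-6B+ cells of 168 h and 72 h (0.98). The replicate block changed no member count of the 7 comparisons (6, 7, 7, 1, 0, 0 and 3), and the F test called 9 of 9 with it.

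With no minimum fold, counts over all genes were 5669 against 2679 (4 h over bone marrow), 6898 against 3758 (4 h over resident), 4872 against 1884 (18 h over 4 h), 3702 against 1520 (72 h over 18 h), 993 against 480 (168 h pair), 5777 against 2807 (resident over bone marrow) and 615 against 309 (Ly-6B+ over 72 h). For Ly-6B- cells of 168 h against resident macrophages the count was 0 with the 6 arrays alone, and 2 to 9 with a replicate left out. The second probe set of Zc3h12a had group means of 81.5 to 140.1, near the table's median. Whether low signal has a part in its smaller differences was not tested.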
